A study of Mus musculus with 30 samples.

Results

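Cadherins are membrane glycoproteins that hold neighbouring cells together. Their extracellular repeats bind calcium and pair with cadherins on the next cell, while the cytoplasmic tail of the classical members binds β-catenin and p120-catenin, and through α-catenin the actin cytoskeleton. In skeletal muscle precursors, N-cadherin (*Cdh2*) and M-cadherin (*Cdh15*) bring myoblasts into contact before they fuse, and *Cdh11*, the osteoblast cadherin, is typical of mesenchymal cells and bone-forming cells. T-cadherin (*Cdh13*) departs from this plan, since it lacks the cytoplasmic tail and is held in the membrane by a lipid anchor.

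The cadherins described here were *Cdh2*, *Cdh3*, *Cdh4*, *Cdh5*, *Cdh11*, *Cdh13* and *Cdh15*, each with every probe set on the array whose symbol was exactly that gene. This gave 16 of the 45101 probe sets, for 7 of the 18194 genes that a probe set names alone. RNA came from C2C12 cells, a mouse myoblast line that forms myotubes in differentiation medium and turns to an osteoblast-like fate when bone morphogenetic protein 2 (BMP2) is added. C2C12-pMirn378 cells carried a lentiviral construct expressing the miR-378 precursor, and control C2C12-pMirn0 cells carried the parent lentivector. Both vectors also encode the fluorescent marker copGFP, by which both lines were sorted. Each line was profiled before differentiation (d0) and after 3 and 6 days (d3, d6) with or without 300 ng/ml BMP2, which made 10 groups of 3 arrays from triplicate experiments. Each line was a single sorted population of transduced cells, so an effect of miR-378 and any other difference between the 2 populations cannot be told apart.

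All levels are log2 values of the deposited intensities, and each call refers to adjusted p under 0.005 together with a log2 ratio beyond 0.6 in either direction. A group whose mean lay below 6.26, the median of all log2 values, is described as dim for that probe set. Array medians ranged from 68.04 to 82.66 on the linear scale, and arrays of one group correlated at 0.9862 to 0.9913. All 8 skeletal muscle markers read here (*Myog*, *Ckm*, *Tnnc2*, *Actn3*, *Myh3*, *Chrng*, *Mymk* and *Acta1*) were at or above that median in every group.

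Of the 16 probe sets, 6 were above the median in all 10 groups, 2 were dim in some groups and 8 were dim in all of them. *Cdh2*, *Cdh13* and *Cdh15* were measured above it throughout, although 1 of the 4 *Cdh13* probe sets (1431824_at) was dim in every group. Both *Cdh11* probe sets crossed the median during the culture. All probe sets of *Cdh3*, *Cdh4* and *Cdh5* were dim in all groups.

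Where a gene had several probe sets above the median, they moved together. Over the 10 group means, Pearson's r was 0.988 between the *Cdh2* probe sets, 0.982 between the *Cdh11* probe sets and 0.988 to 0.998 among the 3 brighter *Cdh13* probe sets. The 2 *Cdh3* probe sets gave -0.66 and the 2 *Cdh5* probe sets 0.057, and the dim *Cdh13* probe set lay between -0.001 and 0.047 against the others. These points share libraries, and the coefficients describe them only.

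*Cdh11* was the cadherin that separated the lines. Its level in C2C12-pMirn378 cells was below that of C2C12-pMirn0 cells at every time point and under both treatments, on both of its probe sets, and no array of one line overlapped the other at the same time and treatment. At d0 the brighter probe set, 1450757_at, read 6.24, 6.39 and 6.02 in C2C12-pMirn378 cells and 9.30, 9.02 and 8.92 in C2C12-pMirn0 cells. The log2 ratio was -2.86 ± 0.11 (SE, n = 3 per group), a level 7.28-fold lower in C2C12-pMirn378 (adjusted p = 1.89e-13). The C2C12-pMirn378 mean, 6.22, lay just below the median, so the probe set was dim in that group alone.

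Without BMP2, *Cdh11* on 1450757_at read 9.68, 9.63 and 9.76 in C2C12-pMirn378 cells at d3, against 11.84, 11.93 and 11.68 in C2C12-pMirn0 cells. At d6 it read 11.10, 11.01 and 11.18 in C2C12-pMirn378 cells, against 12.18, 12.10 and 12.34 in C2C12-pMirn0 cells. Every C2C12-pMirn378 array lay below every C2C12-pMirn0 array on both days, and the gap was wider at d3. The ratios were -2.13 ± 0.11 at d3 (adjusted p = 1.54e-10) and -1.11 ± 0.11 at d6 (adjusted p = 4.13e-06).

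With BMP2, *Cdh11* on 1450757_at read 10.80, 10.89 and 10.85 in C2C12-pMirn378 cells at d3, against 12.65, 12.60 and 12.62 in C2C12-pMirn0 cells. At d6 it read 11.60, 11.75 and 11.87 in C2C12-pMirn378 cells, against 13.27, 13.07 and 13.32 in C2C12-pMirn0 cells. The lines were again separate on both days, and the d6 C2C12-pMirn378 arrays were close to the untreated d3 arrays of C2C12-pMirn0. The ratios were -1.78 ± 0.11 at d3 (adjusted p = 1.89e-10) and -1.48 ± 0.11 at d6 (adjusted p = 5.90e-09).

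**Figure D1:**
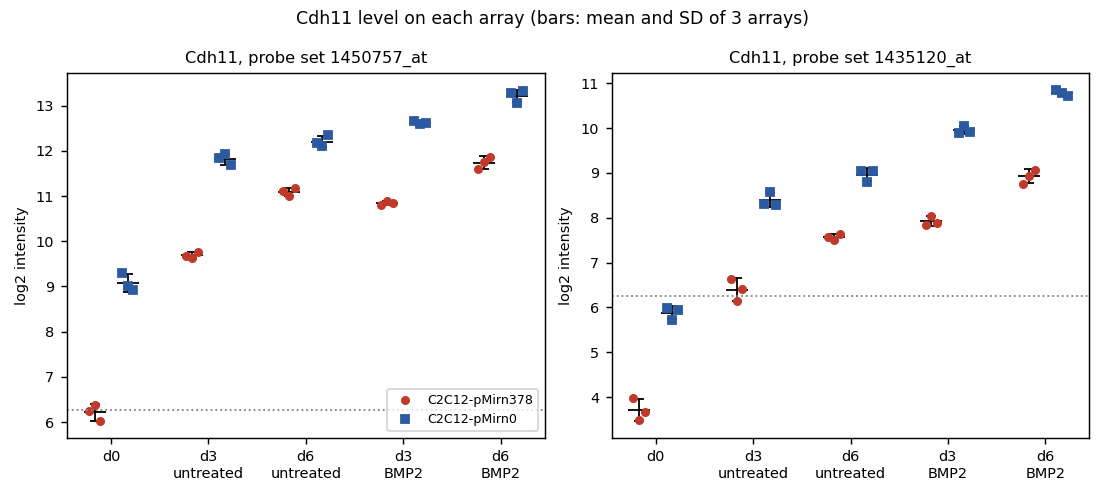
Log2 intensity of *Cdh11* on each of 3 arrays per group (y axis) by time and treatment (x axis) for C2C12-pMirn378 (red circles) and C2C12-pMirn0 (blue squares) on probe sets 1450757_at and 1435120_at, with black bars for mean and SD and a dotted line at the median of all values, 6.26. In each pair the C2C12-pMirn378 arrays lie below the C2C12-pMirn0 arrays, and both lines rise with time.

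The second *Cdh11* probe set, 1435120_at, was dim in both lines at d0, where it read 3.99, 3.50 and 3.66 in C2C12-pMirn378 cells and 5.99, 5.73 and 5.94 in C2C12-pMirn0 cells. With values under 50 set to 50, its d0 ratio was -0.24 and not called, so the d0 result rests on 1450757_at. At d6 with BMP2 it read 8.76, 8.94 and 9.07 in C2C12-pMirn378 cells and 10.85, 10.79 and 10.73 in C2C12-pMirn0 cells, well above the median in both. Its ratios with BMP2 were -2.03 ± 0.13 at d3 and -1.87 ± 0.13 at d6 (adjusted p = 4.68e-10 and 3.61e-09).

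Both *Cdh11* probe sets were called lower at each of the 5 line comparisons, and the only cadherin called higher in any of them was *Cdh13* at d6 with BMP2. Over the whole array, 0.501% of probe sets were called lower and 0.262% higher in C2C12-pMirn378 cells at d0. Without BMP2 these shares were 0.186% lower and 0.233% higher on day 3, and 0.0532% lower and 0.106% higher on day 6. With BMP2 they were 1.46% lower and 1.61% higher on day 3, and 0.836% lower and 0.993% higher on day 6. When only the 6 arrays of a comparison entered its fit, none of the 45101 probe sets was called in any line comparison, *Cdh11* included, although between 3432 and 8329 had an unadjusted p under 0.05 in limma. Array-wide counts of calls under the other settings are given with the processing limits.

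None of the 8 muscle markers or the 5 measured osteoblast markers was called between the lines in undifferentiated cells. Few genes were called there, 0.115% of all genes higher and 0.709% lower in C2C12-pMirn378 cells. The summed intensity of the muscle markers was 23200 to 25730 in C2C12-pMirn378 cells and 27440 to 28040 in C2C12-pMirn0 cells, without overlap, while the sum of the osteoblast markers, 186.1 to 255.4 in C2C12-pMirn378 cells and 214.5 to 306.7 in C2C12-pMirn0 cells, overlapped. Their part in the *Cdh11* result was not tested. In bulk RNA, fewer cells of a type and less RNA per cell cannot be told apart.

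The gap in *Cdh11* narrowed with time on the brighter probe set. The difference between the lines in the d6 over d0 ratio, a comparison chosen after the values were seen, was 1.75 ± 0.15 without BMP2 and 1.39 ± 0.15 with BMP2 (adjusted p = 3.37e-07 and 3.93e-06). *Cdh11* thus rose more in C2C12-pMirn378 cells, from a lower start. The second probe set gave 0.78 ± 0.18 and 0.30 ± 0.18 (adjusted p = 0.0284 and 0.45), neither called, and its d0 levels were dim in both lines. Array-wide, 0.392% of probe sets were called higher and 0.0976% lower in this comparison without BMP2, and 0.98% and 0.601% with BMP2. Besides *Cdh11*, *Cdh13* on 1434115_at (0.69) was called higher and *Cdh15* (-0.86) lower with BMP2. The *Cdh15* call was lost in 9 of the 12 fits that each left out 1 array, with adjusted p up to 0.0124, and with each array's median subtracted (-0.90, adjusted p = 0.0104).

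None of the other cadherins above the median was called between the lines without BMP2. The lowest adjusted p was that of *Cdh13* on 1454015_a_at at d0, which read 7.90 to 8.16 in C2C12-pMirn378 cells and 8.33 to 8.55 in C2C12-pMirn0 cells without overlap, a ratio of -0.39 ± 0.11 (adjusted p = 0.0547). *Cdh2*, N-cadherin, was not called in any of the 5 line comparisons. Its main probe set, 1418815_at, had ratios from -0.27 at d6 with BMP2 (95% interval -0.48 to -0.05, adjusted p = 0.139) to 0.03 at d6 without BMP2 (-0.18 to 0.25). The second, 1449244_at, ranged from -0.17 (-0.49 to 0.16) to 0.18 (-0.15 to 0.50), both with BMP2. These intervals leave room for differences of up to about 0.5 on the log2 scale and none beyond the 0.6 that a call requires.

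At d6 with BMP2, *Cdh15*, M-cadherin, was lower in C2C12-pMirn378 cells. It read 7.14, 7.35 and 7.48 in C2C12-pMirn378 cells and 7.81, 8.23 and 7.93 in C2C12-pMirn0 cells, with no overlap. The ratio was -0.66 ± 0.12 (adjusted p = 7.87e-04). The call was lost when C2C12-pMirn378 replicate 1 (-0.57, adjusted p = 0.00954) or C2C12-pMirn0 replicate 2 (-0.54, adjusted p = 0.0091) was left out, and when each array's median was subtracted (-0.64, adjusted p = 0.00617).

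At d3 with BMP2 *Cdh15* read 7.61, 7.48 and 7.29 in C2C12-pMirn378 cells and 8.09, 7.85 and 7.79 in C2C12-pMirn0 cells, with a ratio of -0.45 ± 0.12 that was not called (adjusted p = 0.0145). Without BMP2 the ratios were between 0.17 and 0.20 in the opposite direction, also not called. At d6 with BMP2, the summed intensity of the 8 muscle markers was 8285 to 9197 in C2C12-pMirn378 cells, against 13640 to 15140 in C2C12-pMirn0 cells. Of these markers, 5 were called lower in C2C12-pMirn378 cells, beside 1.31% of all genes, each read from its brightest probe set. Those with the smallest adjusted p were *Myh3*, embryonic myosin heavy chain (-2.26 ± 0.12), *Myog*, the transcription factor myogenin (-0.92), *Tnnc2*, fast troponin C (-0.97), and *Acta1*, skeletal α-actin (-0.88). At d3 with BMP2, *Myog* and *Myh3* were called lower and *Ckm*, muscle creatine kinase, higher.

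Of the 5 measured osteoblast markers, 1 was called higher in C2C12-pMirn378 cells at d3 with BMP2 and 2 at d6, and none lower. Over all genes, 2.5% and 1.54% were called higher there. *Sp7*, the transcription factor osterix, was called higher in C2C12-pMirn378 cells at d3 (1.33, adjusted p = 6.53e-05) and d6 (1.08, adjusted p = 0.00106), and *Alpl*, alkaline phosphatase, at d6 (1.32 ± 0.21, adjusted p = 1.73e-04). The summed intensity of the 5 osteoblast markers at d6 with BMP2 was 6510 to 8349 in C2C12-pMirn378 cells and 3045 to 3442 in C2C12-pMirn0 cells. The part of the muscle and osteoblast markers in the line differences of *Cdh11*, *Cdh13* and *Cdh15* with BMP2 was not tested.

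*Cdh13*, T-cadherin, differed in the direction opposite to *Cdh15*. At d6 with BMP2 its main probe set, 1434115_at, read 10.93, 10.93 and 10.78 in C2C12-pMirn378 cells and 10.30, 10.27 and 10.17 in C2C12-pMirn0 cells, and the groups did not overlap. The ratio was 0.64 ± 0.066 (adjusted p = 7.43e-07), close to the 0.6 that a call requires, and it fell to 0.60 without C2C12-pMirn0 replicate 3, which ended the call. The other 2 bright probe sets gave 0.46 ± 0.088 and 0.26 ± 0.11 (adjusted p = 0.00142 and 0.196), the same direction without a call. At d3 with BMP2 the main probe set had a ratio of 0.32 ± 0.066 (adjusted p = 0.00172), below the size a call requires.

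**Figure D2:**
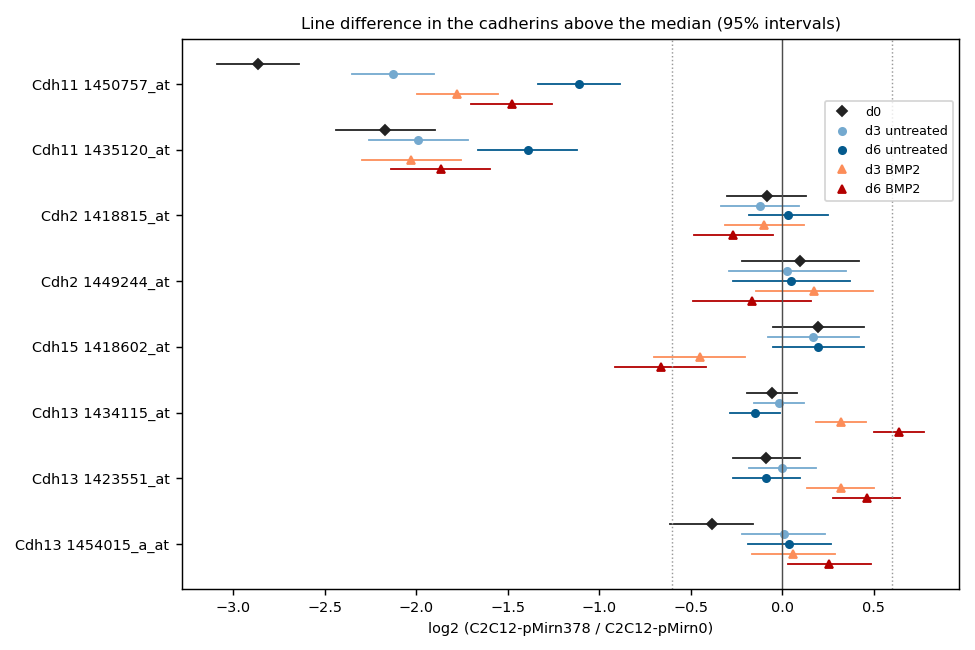
Log2 ratio of C2C12-pMirn378 over C2C12-pMirn0 (x axis) for the 8 cadherin probe sets above the median in at least 1 group (y axis), with 95% intervals from the fit and dotted lines at ±0.6; symbols mark time and treatment. Only the *Cdh11* ratios, -1.11 to -2.86, lie far from 0 in all 5 comparisons.

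BMP2 lowered the cadherins of muscle precursors and raised *Cdh11* in both lines. The largest change was in *Cdh15*. At d3 it read 7.61, 7.48 and 7.29 in BMP2-treated C2C12-pMirn378 cells, against 12.38, 12.12 and 12.17 untreated, a ratio of -4.76 ± 0.12 or 27.1-fold lower (adjusted p = 1.41e-18). In C2C12-pMirn0 cells it read 8.09, 7.85 and 7.79 with BMP2, against 12.15, 11.97 and 12.04 untreated, a ratio of -4.14 ± 0.12 or 17.6-fold lower (adjusted p = 1.84e-17). All treated arrays lay more than 3 log2 units below all untreated arrays.

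At d6 *Cdh15* read 7.14, 7.35 and 7.48 in BMP2-treated C2C12-pMirn378 cells, against 11.67, 11.65 and 11.62 untreated. The readings in C2C12-pMirn0 cells were 7.81, 8.23 and 7.93 with BMP2, against 11.44, 11.34 and 11.58 untreated. Treated and untreated groups were again far apart, and the ratios were -4.32 ± 0.12 and -3.46 ± 0.12 in C2C12-pMirn378 and C2C12-pMirn0 cells. Between d3 and d6 with BMP2 its ratio was -0.14 ± 0.12 in C2C12-pMirn378 cells and 0.08 ± 0.12 in C2C12-pMirn0 cells, neither called.

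The promoter of *Cdh15* is shown because this gene had the largest BMP2 response among the cadherins. It was the only one of the 7 genes matched in the RefSeq promoter entries searched here. Entries of *Cdh2* were left out of that search beforehand, so *Cdh2* could not be matched. The 250 bases before its start site lie at chr8:122848124-122848373 on the plus strand of GRCm38.p6. Capitals mark each match to CANNTG, the E-box bound by myogenic and other basic helix-loop-helix factors, a palindrome that reads alike on both strands.

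Cdh15: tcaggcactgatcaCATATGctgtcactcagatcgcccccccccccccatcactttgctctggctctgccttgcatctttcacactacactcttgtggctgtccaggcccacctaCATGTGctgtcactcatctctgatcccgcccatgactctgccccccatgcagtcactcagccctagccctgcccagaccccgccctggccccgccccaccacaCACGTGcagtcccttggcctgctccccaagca

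The 3 matches began at -236, -135 and -32 from the start site. At least 3 CANNTG matches occurred in 12.2% of the 32851 promoters of the same length, and at least 1 in 66.2%. The one nearest the start site, CACGTG, occurred in 6.02% of them. A match describes letters only, and no binding was measured here. The same chromosome, 8, carries 5 of the 7 cadherin genes, all but *Cdh4* on chromosome 2 and *Cdh2* on chromosome 18.

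*Cdh2* fell with BMP2 on both probe sets. At d3 its main probe set, 1418815_at, read 10.93, 10.92 and 11.22 in BMP2-treated C2C12-pMirn378 cells, against 13.02, 12.88 and 13.07 untreated. In C2C12-pMirn0 cells it read 11.19, 11.10 and 11.08 with BMP2, against 13.23, 13.19 and 12.92 untreated. Treated and untreated arrays were apart in both lines, with ratios of -1.97 ± 0.10 and -1.99 ± 0.10, or 3.91-fold and 3.98-fold lower (adjusted p = 4.57e-13 and 4.51e-13).

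At d6 *Cdh2* on 1418815_at read 10.03, 9.78 and 10.19 in BMP2-treated C2C12-pMirn378 cells, against 12.40, 12.51 and 12.57 untreated. Levels in C2C12-pMirn0 cells were 10.27, 10.20 and 10.34 with BMP2, against 12.44, 12.35 and 12.59 untreated. The treated arrays were again the lower ones in both lines, with ratios of -2.49 ± 0.10 and -2.19 ± 0.10. Unlike *Cdh15*, *Cdh2* went on falling between d3 and d6 with BMP2, with ratios of -1.02 ± 0.10 in C2C12-pMirn378 cells and -0.85 ± 0.10 in C2C12-pMirn0 cells (adjusted p = 1.39e-07 and 5.97e-06).

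*Cdh13* also fell with BMP2, less at d3 than at d6. At d3 the main probe set read 11.60, 11.49 and 11.56 in BMP2-treated C2C12-pMirn378 cells, against 12.07, 12.16 and 12.12 untreated. In C2C12-pMirn0 cells it read 11.22, 11.19 and 11.27 with BMP2, against 12.11, 12.16 and 12.14 untreated. The treated arrays were lower in both lines, with ratios of -0.57 ± 0.066 in C2C12-pMirn378 cells, short of the size for a call, and -0.90 ± 0.066 in C2C12-pMirn0 cells (adjusted p = 2.60e-07 and 1.62e-10). Of the 3 bright *Cdh13* probe sets, only 1454015_a_at was called in C2C12-pMirn378 cells at d3 (-0.96 ± 0.11), while all 3 were called in C2C12-pMirn0 cells.

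At d6 *Cdh13* on 1434115_at read 10.93, 10.93 and 10.78 in BMP2-treated C2C12-pMirn378 cells, against 12.19, 12.27 and 12.15 untreated. C2C12-pMirn0 arrays read 10.30, 10.27 and 10.17 with BMP2, against 12.28, 12.40 and 12.38 untreated. The drop was the deeper one in C2C12-pMirn0 cells, with ratios of -1.32 ± 0.066 and -2.11 ± 0.066, or 2.50-fold and 4.31-fold lower. The 2 other bright probe sets were called in both lines as well, from -1.51 to -2.06.

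*Cdh11* was the cadherin called higher with BMP2. On 1450757_at its ratio of BMP2-treated over untreated was 1.16 ± 0.11 at d3 and 0.64 ± 0.11 at d6 in C2C12-pMirn378 cells, against 0.81 ± 0.11 and 1.01 ± 0.11 in C2C12-pMirn0 cells (adjusted p = 7.03e-09, 3.94e-05, 2.20e-06 and 6.53e-08). The arrays behind these ratios are those given above, and treated and untreated arrays of one line did not overlap on either day. The d6 value in C2C12-pMirn378 cells was near the size a call requires, and it was 0.60 without untreated replicate 2 and 0.58 without BMP2-treated replicate 3, both no longer called. The second probe set gave larger ratios, from 1.35 to 1.83, all called.

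**Figure D3:**
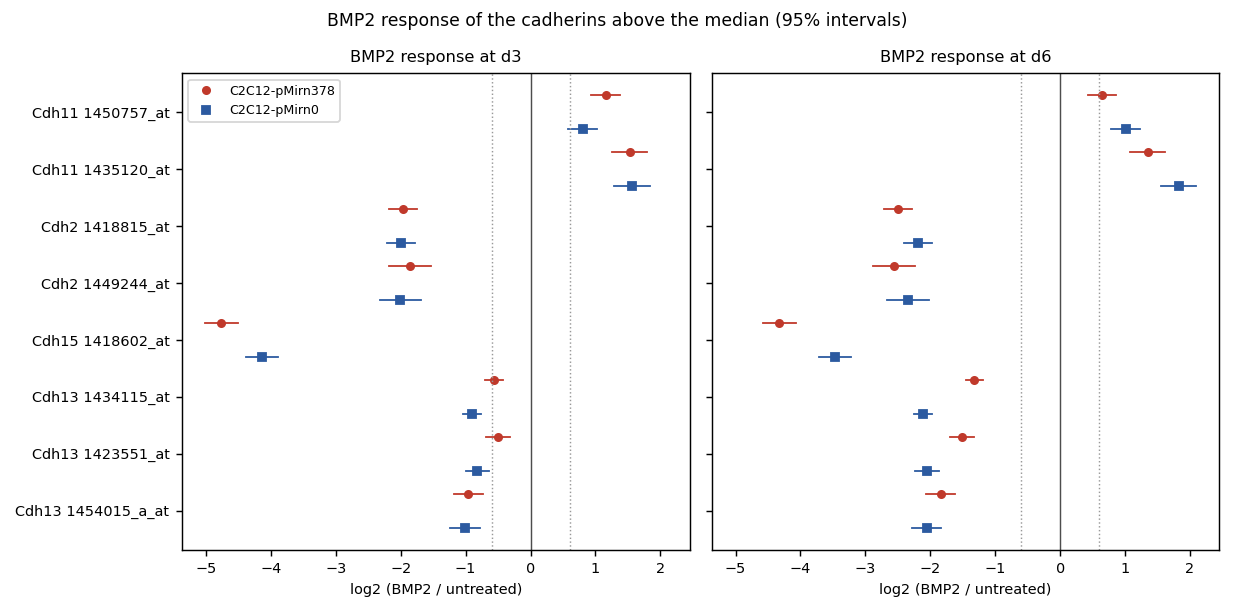
Log2 ratio of BMP2-treated over untreated cells (x axis) at d3 and d6 for the 8 cadherin probe sets above the median in at least 1 group (y axis), for C2C12-pMirn378 (red circles) and C2C12-pMirn0 (blue squares), with 95% intervals and dotted lines at ±0.6. *Cdh11* lies right of 0 and *Cdh2*, *Cdh15* and *Cdh13* lie left of it in both lines, *Cdh15* farthest at -3.46 to -4.76.

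In C2C12-pMirn378 cells 2 of the 16 probe sets were called higher and 4 lower with BMP2 at d3, and 2 higher and 6 lower at d6. In C2C12-pMirn0 cells 2 were called higher and 7 lower at d3, and 2 higher and 6 lower at d6. Array-wide, 9.92% of probe sets were called higher and 8.11% lower in C2C12-pMirn378 cells at d3, and 8.71% in each direction at d6. In C2C12-pMirn0 cells these shares were 8.63% higher and 6.75% lower at d3, and 9.66% higher and 8.24% lower at d6. The higher calls were all those of *Cdh11*. The lower calls were those of *Cdh2*, *Cdh13* and *Cdh15*, and in C2C12-pMirn0 cells at d3 also of *Cdh3*. Probe sets of one gene are not independent, and the members were chosen with earlier results of these data known. No conclusion is therefore drawn from these counts beside the array-wide shares.

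Markers of several cell fates moved with these changes. Over all genes, each read from its brightest probe set, 10.7% to 13.3% were called higher with BMP2 and 8.4% to 11% lower. All 8 muscle markers were called lower with BMP2 in both lines on both days. At d3 their summed intensity was 17590 to 19800 in treated C2C12-pMirn378 cells against 124900 to 130300 untreated, and 19120 to 21560 in treated C2C12-pMirn0 cells against 109300 to 126800 untreated. Of 5 measured osteoblast markers, 4 were called higher at d3 in both lines, with sums of 7093 to 7752 in treated C2C12-pMirn378 cells against 234.6 to 254.2 untreated, and 3698 to 3963 in treated C2C12-pMirn0 cells against 210.5 to 257.3 untreated. The only osteoblast marker dim in every group was *Ibsp*. Of 3 adipocyte markers, *Fabp4*, a fatty acid binding protein, was called higher with BMP2 in both lines on both days, and at d3 the sum of the 3 was 1855 to 1950 in treated C2C12-pMirn378 cells against 148.2 to 202 untreated, and 2885 to 3295 in treated C2C12-pMirn0 cells against 174.7 to 247.5 untreated. Of 4 chondrocyte markers, the transcription factor *Sox9* and the collagen *Col2a1* were called higher at d3 in both lines and *Col2a1* again at d6. Their d3 sums were 1481 to 1721 in treated C2C12-pMirn378 cells against 447.1 to 545.6 untreated. In C2C12-pMirn0 cells they were 951.3 to 1282 treated against 462.9 to 467.4 untreated. The treated d3 sums overlapped those at d0, 1432 to 1633 in C2C12-pMirn378 cells and 1187 to 1270 in C2C12-pMirn0 cells. The part of these cell-state markers in the cadherin results was not tested.

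Whether the BMP2 response itself differed between the lines was asked by an interaction term. No cadherin probe set was called by limma at d3, where 4 had an unadjusted p under 0.05 and where 0.647% of all probe sets were called higher and 0.594% lower. The lowest adjusted p values there were those of *Cdh15* (-0.62 ± 0.17, adjusted p = 0.041) and *Cdh13* on 1434115_at (0.34 ± 0.093, adjusted p = 0.0418). At d6 the *Cdh13* probe set was called higher, at 0.79 ± 0.093 (adjusted p = 1.30e-05), so that its fall with BMP2 was shallower in C2C12-pMirn378 cells. *Cdh15* was called lower at d6, at -0.86 ± 0.17 (adjusted p = 0.00378). Array-wide 0.588% were called higher and 0.687% lower at d6.

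These interaction results were not equally firm. The other 2 bright *Cdh13* probe sets gave 0.55 ± 0.13 and 0.22 ± 0.16 (adjusted p = 0.0121 and 0.567), the same direction without a call. The *Cdh15* call was lost in 9 of the 12 fits that each left out 1 array, with adjusted p from 0.00274 to 0.0157, and it was lost with the replicate number as a block (adjusted p = 0.00573) and with each array's median subtracted (-0.70, adjusted p = 0.0551). *Cdh2* and *Cdh11* had no interaction call on either day. On their main probe sets the d6 values were -0.30 ± 0.15 and -0.37 ± 0.15 (adjusted p = 0.333 and 0.222).

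**Figure D4:**
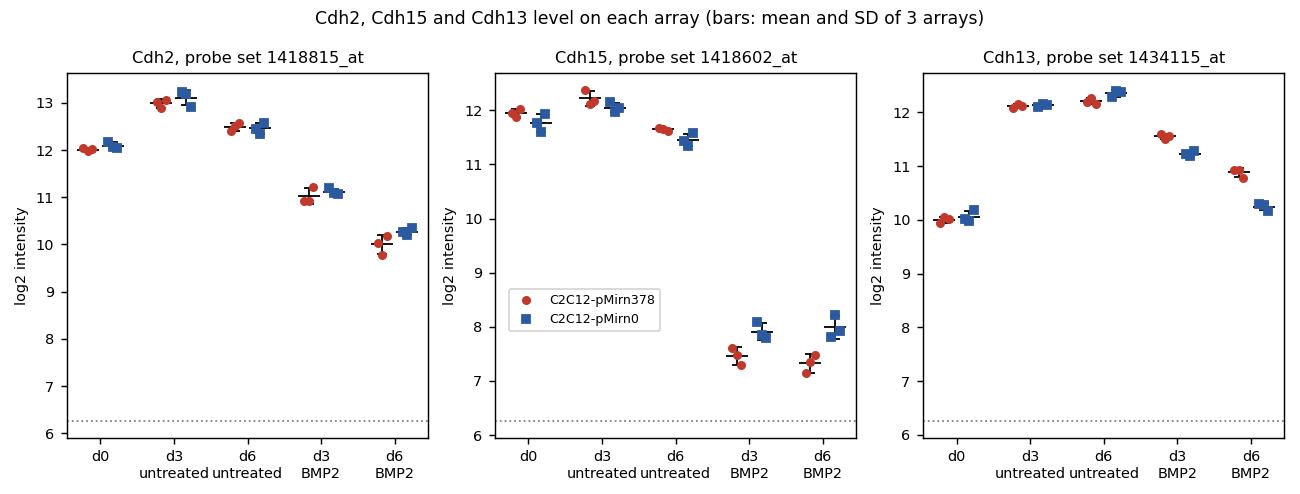
Log2 intensity of *Cdh2* (1418815_at), *Cdh15* (1418602_at) and *Cdh13* (1434115_at) on each of 3 arrays per group (y axis) by time and treatment (x axis) for C2C12-pMirn378 (red circles) and C2C12-pMirn0 (blue squares), with black bars for mean and SD and a dotted line at the median of all values, 6.26. With BMP2 *Cdh15* drops to 7.14 to 8.23 by d3 or d6, *Cdh2* and *Cdh13* step down from d3 to d6, and with BMP2 the lines do not overlap in *Cdh15* and *Cdh13* on either day, with the wider gap at d6.

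During myogenic differentiation, the culture without BMP2, *Cdh11* and *Cdh13* rose in both lines and *Cdh15* did not pass the test. A change over the 6 days was called when the d6 over d0 ratio had an adjusted p under 0.005 and averaging it with the d3 over d0 ratio gave a value beyond 0.6. *Cdh13* on 1434115_at read 9.94, 10.05 and 10.01 in C2C12-pMirn378 cells at d0, 12.07, 12.16 and 12.12 at d3 and 12.19, 12.27 and 12.15 at d6. In C2C12-pMirn0 cells it read 10.02, 9.97 and 10.18 at d0, 12.11, 12.16 and 12.14 at d3 and 12.28, 12.40 and 12.38 at d6. Most of the rise was present at d3 in both lines, with d6 over d0 ratios of 2.20 ± 0.066 and 2.30 ± 0.066, or 4.61-fold and 4.91-fold.

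*Cdh11* on 1450757_at rose by d6 without BMP2 by 4.88 ± 0.11 in C2C12-pMirn378 cells and by 3.13 ± 0.11 in C2C12-pMirn0 cells, 29.5-fold and 8.73-fold (adjusted p = 3.80e-19 and 3.80e-16). The first of these folds starts from a dim group. *Cdh2* peaked at d3. On 1418815_at it read 12.04, 11.98 and 12.02 in C2C12-pMirn378 cells at d0, below all 3 d3 and all 3 d6 arrays of that line, and 12.17, 12.06 and 12.05 in C2C12-pMirn0 cells at d0. Its d3 over d0 ratio was 0.98 ± 0.10 and 1.02 ± 0.10, and its d6 over d0 ratio 0.48 ± 0.10 and 0.37 ± 0.10, in C2C12-pMirn378 and C2C12-pMirn0 cells. With adjusted p of 5.66e-04 and 0.00687 at d6, it was called in C2C12-pMirn378 cells alone, although the line by time difference was 0.12 ± 0.15 (adjusted p = 0.79). That call was lost when only the compared groups entered the fit (adjusted p = 0.00514), and the second *Cdh2* probe set, 1449244_at, was called in neither line, with d6 over d0 ratios of 0.08 ± 0.15 and 0.12 ± 0.15 (adjusted p = 0.757 and 0.595).

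*Cdh15* read 11.95, 11.88 and 12.03 in C2C12-pMirn378 cells and 11.76, 11.59 and 11.92 in C2C12-pMirn0 cells at d0. Its d6 over d0 ratios without BMP2 were -0.31 ± 0.12 in both lines (adjusted p = 0.0476 and 0.0498), not called. In the untreated course 6 cadherin probe sets were called higher and none lower in C2C12-pMirn378 cells, and 5 higher and none lower in C2C12-pMirn0 cells. Array-wide, 9.77% were called higher and 10.3% lower in C2C12-pMirn378 cells, and 8.7% higher and 10.3% lower in C2C12-pMirn0 cells.

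During osteogenic differentiation, the culture with BMP2, *Cdh11* rose and *Cdh2* and *Cdh15* fell from d0 in both lines. *Cdh11* on 1450757_at rose by 5.52 ± 0.11 in C2C12-pMirn378 cells and by 4.14 ± 0.11 in C2C12-pMirn0 cells by d6, 46.0-fold and 17.6-fold. The 46.0-fold rise starts from a dim group. *Cdh15* was 24.8-fold and 13.6-fold lower at d6 than at d0 in the 2 lines. *Cdh2* on 1418815_at was 4.03-fold and 3.55-fold lower (adjusted p = 2.83e-13 and 1.96e-12).

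*Cdh13* passed through a peak with BMP2. In C2C12-pMirn378 cells its main probe set averaged 10.00 ± 0.055 at d0, 11.55 ± 0.054 at d3 and 10.88 ± 0.087 at d6 (SD, n = 3). In C2C12-pMirn0 cells it averaged 10.06 ± 0.11 at d0, 11.23 ± 0.041 at d3 and 10.24 ± 0.069 at d6 (SD, n = 3). Its d6 arrays overlapped its d0 arrays in C2C12-pMirn0 cells (ratio 0.19 ± 0.066, adjusted p = 0.03), so it was called higher over the course in C2C12-pMirn378 cells alone (d6 over d0 0.88 ± 0.066, adjusted p = 1.69e-10). The difference between the lines in this ratio was 0.69 ± 0.093 (adjusted p = 5.14e-05), with 0.55 ± 0.13 and 0.64 ± 0.16 on the other bright probe sets, neither called (adjusted p = 0.0102 and 0.0155).

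With BMP2, 5 cadherin probe sets were called higher and 3 lower over the course in C2C12-pMirn378 cells, and 2 higher and 3 lower in C2C12-pMirn0 cells. Array-wide, 10.2% were called higher and 9.78% lower in C2C12-pMirn378 cells, and 9.08% higher and 8.52% lower in C2C12-pMirn0 cells. Between d3 and d6 with BMP2, a comparison chosen after the values were seen, the bright *Cdh13* and *Cdh2* probe sets were called lower in both lines. *Cdh13* on 1434115_at in C2C12-pMirn378 cells (-0.67) lost this call with each array's median subtracted (-0.59). Both *Cdh11* probe sets were called higher in C2C12-pMirn378 cells and 1 of them, 1435120_at, in C2C12-pMirn0 cells, where 1450757_at gave 0.60 ± 0.11, just short of the size required. Array-wide, this step had 2.41% higher and 3.29% lower in C2C12-pMirn378 cells, and 0.665% higher and 1.8% lower in C2C12-pMirn0 cells.

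The order of the 10 groups differed among the 4 cadherins. For *Cdh11* on 1450757_at the means ran from 13.22 in C2C12-pMirn0 cells at d6 with BMP2 down to 6.22 in C2C12-pMirn378 cells at d0, and of the 9 neighbouring pairs only untreated C2C12-pMirn0 at d3 and BMP2-treated C2C12-pMirn378 at d6 overlapped. *Cdh2* ran from 13.11 in untreated C2C12-pMirn0 cells at d3 to 10.00 in BMP2-treated C2C12-pMirn378 cells at d6, with 3 overlapping neighbours. *Cdh13* ran from 12.35 in untreated C2C12-pMirn0 cells at d6 to 10.00 in C2C12-pMirn378 cells at d0, with 4 overlaps. *Cdh15* ran from 12.22 in untreated C2C12-pMirn378 cells at d3 to 7.32 in BMP2-treated C2C12-pMirn378 cells at d6, with 6 overlaps, so that its groups formed an upper set of 6 without BMP2 and a lower set of 4 with it.

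Over the 10 group means, *Cdh2* and *Cdh15* were the most alike of the 4 (Pearson's r 0.919), and *Cdh11* and *Cdh15* the least (-0.526). The other pairs were 0.537 for *Cdh2* and *Cdh13*, 0.388 for *Cdh11* and *Cdh13*, 0.251 for *Cdh13* and *Cdh15* and -0.342 for *Cdh2* and *Cdh11*. Candidates were 5615 probe sets with 1 symbol, and 1 probe set was kept per gene. The profiles most like *Cdh11* were those of *Adamts12*, a secreted metalloprotease (0.977), and *Trp53inp1*, a p53-inducible gene (0.962). Next was *Vldlr*, a lipoprotein receptor read from a probe set that can cross-hybridise (0.953). At d0 *Adamts12* was dim, at 4.30 in C2C12-pMirn378 cells and 5.60 in C2C12-pMirn0 cells. *Vldlr* was dim at d0 as well, at 3.51 and 4.11. Most like *Cdh15* were *Panx1*, a membrane channel (0.995), *Clcn5*, a chloride transporter (0.995), and *Ttc9* (0.993). With BMP2 *Ttc9* was dim in every group and *Clcn5* in most of them.

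The profiles most like *Cdh2* were those of *Cdk5r1*, the p35 activator of the kinase Cdk5 (0.994), *Stard13* (0.992) and *Baiap2l1* (0.989). Those most like *Cdh13* were *Fggy*, a carbohydrate kinase (0.997), *Dcaf11* (0.993) and *Kidins220*, a membrane scaffold of neurotrophin receptors (0.989). These coefficients are over 10 group means that share lines, treatments and days, and they describe likeness only.

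*Cdh3*, *Cdh4* and *Cdh5* gave no level that could be ordered. *Cdh5*, the endothelial VE-cadherin, lay between 1.49 and 5.90 on all 30 arrays over its 2 probe sets, below the median throughout. Of 8 endothelial markers, *Pecam1*, *Tek*, *Tie1*, *Emcn* and *Esam* were dim in every group, while *Kdr*, *Cldn5* and *Egfl7* reached the median in some groups. None of the 8 was called in a line or BMP2 comparison. With BMP2, 8.4% to 13.3% of all genes were called in each direction. The summed intensity of the 8 was 206 to 396.2 over all arrays. *Cdh4*, the retinal R-cadherin, lay between 0.96 and 6.07 over its 3 probe sets, also below the median on every array. *Cdh3*, the placental P-cadherin, lay above the median on 2 of the 30 arrays on 1426673_at and on none on 1441255_at.

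The only call among the dim probe sets was *Cdh3* on 1426673_at, lower with BMP2 in C2C12-pMirn0 cells at d3. It read 3.85, 4.13 and 3.63 with BMP2, against 6.07, 5.54 and 6.57 untreated, a ratio of -2.19 (adjusted p = 0.00352). With values under 50 set to 50 the ratio was -0.45 and not called, and the call was also lost in 5 of the 6 fits that left out 1 array and with the replicate number as a block (adjusted p = 0.00589). In C2C12-pMirn378 cells at d3 the same probe set read 2.95, 4.15 and 4.60 with BMP2, against 5.13, 5.77 and 6.25 untreated. The second *Cdh3* probe set showed no like pattern, and its SD within groups reached 2.10.

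Of 16 further cadherin genes, 14 could be matched to a probe set and 12 of these were dim in every group. The exceptions were *Cdh1*, the epithelial E-cadherin, and *Cdh10*. *Cdh1* averaged 4.64 ± 0.51 with BMP2 in C2C12-pMirn378 cells at d3 and 5.78 ± 0.12 in C2C12-pMirn0 cells (SD, n = 3), a difference of -1.14 ± 0.26 (adjusted p = 0.00454) between 2 dim groups. Without BMP2 at d3 it averaged 7.36 ± 0.23 in C2C12-pMirn378 cells and 7.42 ± 0.23 in C2C12-pMirn0 cells, above the median, and it was called lower with BMP2 in both lines on both days, with ratios from -1.63 to -3.06.

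*Cdh10* was called lower with BMP2 at d6 in both lines, at -2.41 ± 0.39 in C2C12-pMirn378 cells and -2.42 ± 0.39 in C2C12-pMirn0 cells, and its untreated means there, 6.58 and 6.49, were just above the median. Of the 6 epithelial markers, *Krt8*, *Krt18*, *Cldn4* and *Esrp1* were dim in every group and none was called in a line comparison. The keratin *Krt19* was called lower with BMP2 at d6 in both lines, at -5.10 ± 0.77 in C2C12-pMirn378 cells and -5.76 ± 0.77 in C2C12-pMirn0 cells, and the adhesion molecule *Epcam* was called higher in C2C12-pMirn0 cells (1.31). The summed intensity of the 6 was 309 to 391.5 with BMP2 at d6 in C2C12-pMirn378 cells against 446.2 to 579.9 untreated, and 305.6 to 434.4 with BMP2 in C2C12-pMirn0 cells against 621.5 to 655.5 untreated. Their part in the *Cdh1* result was not tested.

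The intracellular and lateral partners of cadherins at adherens junctions were read from a list of 19 genes, of which *Ctnna2*, *Ctnnd2* and *Nectin1* were dim in every group. None of the 19 was called between the lines in the groups without BMP2. Few genes were called there: over all genes, 0.115% were higher and 0.709% lower in C2C12-pMirn378 cells at d0. These shares were 0.418% and 0.302% at d3, and 0.165% and 0.0824% at d6. With BMP2 at d3, *Arvcf*, a p120-catenin relative, and *Nectin2*, a nectin that clusters at the same junctions, were called higher in C2C12-pMirn378 cells, and *Arvcf* again at d6. *Arvcf* averaged 8.64 ± 0.18 at d3 and 8.25 ± 0.19 at d6 in BMP2-treated C2C12-pMirn378 cells, against 7.94 ± 0.11 and 7.45 ± 0.064 in C2C12-pMirn0 cells (SD, n = 3), with ratios of 0.70 ± 0.16 and 0.81 ± 0.16 (adjusted p = 0.00425 and 0.0018). *Nectin2* averaged 8.99 ± 0.11 and 8.17 ± 0.11 at d3 in the same order of lines, a ratio of 0.82 ± 0.11 (adjusted p = 2.22e-05).

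Over all genes, each read from its brightest probe set, 2.5% were called higher and 1.87% lower in C2C12-pMirn378 cells at d3 with BMP2, and 1.54% and 1.31% at d6. The median ratio of the 19 partners was 0.21 at d3 and 0.01 at d6, beside -0.01 and -0.02 over all genes.

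The partners responded to BMP2 in both directions. At d3, 5 were called higher and 6 lower in each line, and at d6, 5 higher and 7 lower in C2C12-pMirn378 cells and 4 higher and 8 lower in C2C12-pMirn0 cells. Over all genes the shares at d3 were 13.3% higher and 9.75% lower in C2C12-pMirn378 cells, and 11.1% and 8.4% in C2C12-pMirn0 cells. At d6 they were 10.7% higher and 11% lower in C2C12-pMirn378 cells, and 10.9% and 10.5% in C2C12-pMirn0 cells. The partners named next were chosen after their values were seen.

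Those called higher in both lines on both days were *Boc* and *Cdon*, surface receptors that bind N-cadherin in myoblasts, *Neo1*, the netrin receptor neogenin, and *Nectin3*. At d6 the ratio of *Boc* was 3.50 ± 0.17 in C2C12-pMirn378 cells and 2.75 ± 0.17 in C2C12-pMirn0 cells, and that of *Neo1* was 1.52 ± 0.12 and 1.89 ± 0.12. Among those called lower was *Jup*, plakoglobin, a catenin that can take the place of β-catenin on the cadherin tail, at -2.44 ± 0.14 and -2.27 ± 0.14. *Ctnna1*, α-catenin, fell by less, at -0.75 ± 0.055 and -0.64 ± 0.055.

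The core catenins *Ctnnb1* (β-catenin) and *Ctnnd1* (p120-catenin) and the actin linker *Vcl* (vinculin) were called in no line or BMP2 comparison. *Ctnnb1* averaged 13.37 ± 0.037 with BMP2 and 13.50 ± 0.11 without in C2C12-pMirn378 cells at d6, and 13.42 ± 0.042 with BMP2 and 13.59 ± 0.032 without in C2C12-pMirn0 cells (SD, n = 3). The ratios were -0.13 ± 0.060 and -0.17 ± 0.060 (adjusted p = 0.116 and 0.0306). At d6 with BMP2, *Vcl* was higher by 0.54 ± 0.056 in C2C12-pMirn378 cells (adjusted p = 7.04e-07), under the size a call requires.

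**Figure D5:**
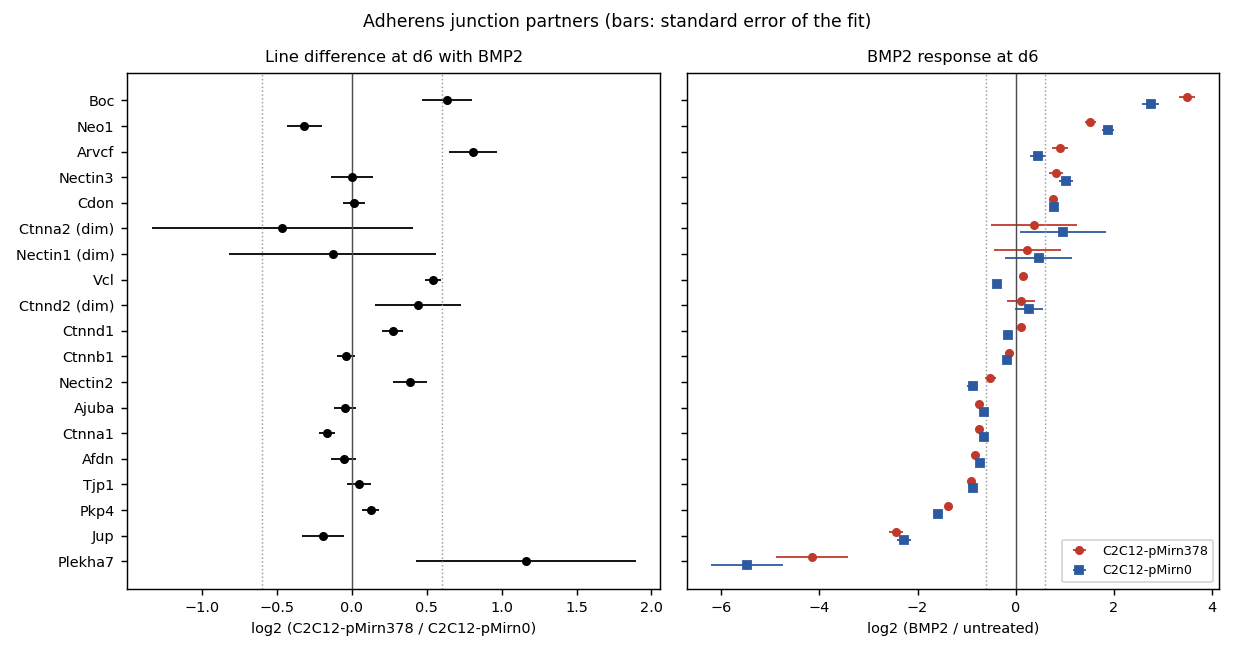
Log2 ratios of the 19 junction partner genes (y axis) at d6, for C2C12-pMirn378 over C2C12-pMirn0 with BMP2 (left, black) and for BMP2-treated over untreated cells (right) in C2C12-pMirn378 (red circles) and C2C12-pMirn0 (blue squares), with bars for the standard error and dotted lines at ±0.6; genes dim in every group are marked. The BMP2 ratios spread to both sides in both lines, *Boc* at 3.50 and 2.75 on the right and *Jup* at -2.44 and -2.27 on the left.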

How the data were processed

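RNA of 30 cultures was hybridised to Affymetrix 430 2.0 mouse arrays. The authors summarised probe sets with RMA in R 2.4.1 and normalised by quantiles, and the deposited values are intensities on a linear scale. They were taken to log2 with no offset, although 0.407% of values were under 1. Since array medians differed, quantile normalisation and median subtraction were tried again as alternatives. One linear model with 10 group means was fitted to all 45101 probe sets with limma 3.58.1 in R 4.3.3 (20 residual degrees of freedom), with moderated tests and Benjamini-Hochberg adjustment per comparison. Calls followed the thresholds of the study's methods, adjusted p under 0.005 and log2 beyond 0.6. Probe sets were named from the platform annotation, 34958 with 1 symbol, 932 with several and 9211 with none; a list gene was read from its probe set with the highest mean. Of the lists, *Cdh12*, *Cdh24*, *Bglap*, *Runx2*, *Phospho1* and *Plin1* had no match. The genes named for likeness were the 3 with the highest correlation to a cadherin's brightest probe set, among probe sets not below the median level whose group means had an SD of at least 0.5. From each list, genes called in a line difference were named, up to 4 by adjusted p. *Ckm* and the list genes named for a BMP2 response were chosen after their values were seen. Members and lists were chosen with earlier results of these data known. The fit was tested on simulated data. The precision is limited by 3 arrays per group: the median SD within groups was 0.145 for probe sets above the median and 0.846 for dim ones. The alternatives tried were a replicate block, only bright probe sets, trend and robust estimation, other normalisations, an offset of 16, a floor of 50, only the compared groups, and leaving out each array. Promoter sequence came from RefSeq on GRCm38.p6.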

Additional observations from a re-analysis of the deposited data

Results flagged for a closer look

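The BMP2 response differed between C2C12-pMirn378 and C2C12-pMirn0 cells at d6, by the interaction term, for *Cdh13* on 1434115_at (0.79 on the log2 scale) and for *Cdh15* (-0.86). The change between d0 and d6 differed between the lines without BMP2 for *Cdh11* on 1450757_at (1.75). With BMP2 it differed for *Cdh11* on 1450757_at (1.39), *Cdh13* on 1434115_at (0.69) and *Cdh15* (-0.86). The second *Cdh11* probe set gave 0.78 without BMP2 and 0.30 with it, neither called. The other bright *Cdh13* probe sets, 1423551_at and 1454015_a_at, gave 0.55 and 0.22 in the interaction. In the change between d0 and d6 with BMP2 they gave 0.55 and 0.64, and none of these values was called. Both *Cdh15* calls were lost in 9 of the 12 fits that left out 1 array and with each array's median subtracted. Groups of 3 arrays were not tested for single arrays that stand apart.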

How the results depend on the processing

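The 86 called cadherin ratios were recomputed in 1311 combinations with another setting; 1240 kept direction and call, 71 kept direction without the call and 0 changed direction. Of the 71, 35 came from fitting only the compared groups, 28 from leaving out an array, 4 from median subtraction, 2 from the replicate block and 2 from the floor of 50. With only the compared groups, 0 cadherin probe sets were called (main 2 at d0, d3 and d6 without BMP2 and at d3 with BMP2, 4 at d6 with BMP2) in the line comparisons, in the d6 interaction (main 2), between d3 and d6 with BMP2 (main 7 in C2C12-pMirn378 and 6 in C2C12-pMirn0) and in both line by time comparisons (main 1 and 3); such a fit has 4 or 8 residual degrees of freedom. With the floor of 50, 1 was called at d0 and 2 in the line by time comparison without BMP2. On *Cdh11* 1435120_at the floor left a line ratio of -0.24 at d0. At d6 without BMP2, where its arrays lay above the floor, the ratio was -1.39. Every C2C12-pMirn378 array at d0 lay under 50, so the floor itself cut the d0 ratio, which was -2.17 without it. The floored values thus cannot show whether the gap narrowed on this probe set. The d6 interaction gave 1 with the replicate block, 1 with median subtraction, and 1 to 2 on leaving out an array. Replicate numbers did not pair the arrays: 24 of 135 same-number pairs correlated above 0.1 (median 0.043, against -0.017 for different numbers), and 1 of 45 group pairs did so in all pairs. The block ended the calls of *Cdh15* in the d6 interaction and *Cdh3* at d3, and no other. Over all probe sets, line difference calls numbered 344, 189, 72, 1388 and 825 (d0, then d3 and d6 without and with BMP2), 56 to 193 for the third under other settings and 37 to 56 on leaving out an array, and 521 and 289 at most for the first pair. Median subtraction moved their split into higher and lower to 172 and 160 (main 118 and 226) at d0, 68 and 86 (105 and 84) at d3 and 24 and 32 (48 and 24) at d6 without BMP2, and in the interaction to 233 and 127 (292 and 268) at d3 and 328 and 119 (265 and 310) at d6. It moved the split between d3 and d6 with BMP2 to 1410 and 1153 (1089 and 1482) in C2C12-pMirn378 and 417 and 548 (300 and 811) in C2C12-pMirn0, and the line by time split without BMP2 to 85 and 85 (177 and 44). The median of all ratios was largest for BMP2 at d6 in C2C12-pMirn0, at 0.122. Median subtraction centred the arrays and not the ratios, and single shifts could be larger. It moved the *Cdh15* d6 interaction from -0.86 to -0.70. With only the compared groups, BMP2 calls numbered 4375 at d3 and 4108 at d6 in C2C12-pMirn378 (main 8131 and 7855) and 3919 and 4835 in C2C12-pMirn0 (main 6935 and 8074). Over the other settings the interaction calls numbered 360 to 888 at d3 (main 560) and 447 to 928 at d6 (main 575), and those of the line by time comparisons 170 to 432 without BMP2 (main 221) and 514 to 1096 with it (main 713).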
